A study of Mus musculus with 6 samples.

Results

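The Hox cluster genes were read in cultured lung microvascular endothelial cells (LMVEC) of Ptprz1+/+ mice and of mice labelled Ptprz1-/-. The members were the protein-coding rows of the count table named Hox, a cluster letter from a to d and a paralog number, whatever their values. These were 31 of the 21999 genes in the table, and 39 such genes are annotated in GENCODE on GRCm38. The remaining 8 (Hoxb1, Hoxc10, Hoxc11, Hoxc12, Hoxd1, Hoxd11, Hoxd12 and Hoxd13) had no row in the count table and were not analysed here. Each row of that table has at least 1 read over the libraries. Total RNA came from 3 fresh isolations per genotype, of untreated cells from mice of the SV129/B6 strain. Lungs of 2 to 5 mice aged 3 to 8 weeks were pooled per isolation, and the cells were grown to confluence and then separated on magnetic beads against CD31, the endothelial surface protein encoded by Pecam1. The allele of the libraries labelled Ptprz1-/- is a knockout of Ptprz1, a receptor-type tyrosine phosphatase, and the labels give no batch.

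Between 14496881 and 17709663 reads were counted on genes per library. Ptprz1 itself was counted 197, 1837 and 508 times in Ptprz1+/+ replicates 1, 2 and 3, and 1138, 1320 and 895 times in the libraries labelled Ptprz1-/-, so its reads did not separate the labels. Below, wild type stands for the Ptprz1+/+ libraries and knockout-labelled for those labelled Ptprz1-/-. The 12 endothelial markers summed to 36.4, 39.1 and 587 CPM in the wild-type libraries and to 19.7, 24.2 and 196 CPM in the knockout-labelled libraries, where CPM is the count scaled to the library size adjusted by edgeR's TMM method. The 10 fibroblast markers summed to between 11799 and 28077 CPM in every library. Endothelial markers were thus low against fibroblast markers, and both replicates 3 held the most endothelial RNA. Mesothelial markers (6 genes) were at 217, 55.8 and 90.7 CPM in the wild-type libraries and at 1380, 115 and 279 CPM in the knockout-labelled libraries. Smooth muscle and pericyte markers (8 genes) ranged from 402 to 4077 CPM, and the 4 leukocyte markers in the table from 8.65 to 45.7 CPM. The 6 epithelial markers summed to at most 1.15 CPM, and each was at 0 in at least 1 library, which held for no marker of the other lists in the table. In bulk RNA of this kind, fewer cells of a type and less RNA per cell cannot be told apart.

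Hox genes encode homeodomain transcription factors that give cells their position along the body axis. In each cluster the genes stand in the order in which they are used along that axis, with low paralog numbers used from the hindbrain and neck backwards and high numbers in the lumbosacral trunk, the distal limb and the genital region. Fibroblasts and other connective tissue cells keep much of the Hox pattern of the place they come from after they are taken into culture. In the lung, an organ of the foregut, Hoxa5 is known for its part in airway branching and in tracheal and alveolar development. Hox proteins bind DNA together with the Pbx, Meis and Pknox cofactors, and Polycomb and Trithorax complexes keep the clusters silent or active.

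The genes of the 4 clusters lie on 4 chromosomes of GRCm38. The Hoxa genes (11 of 11 in the table) span 105.3 kb of chromosome 6, which is 29.1 Mb from Ptprz1 on the same chromosome. The Hoxb genes (9 of 10) span 159.7 kb of chromosome 11 from 96194316 to 96354012. The Hoxc genes in the table (6 of 9) span 115.8 kb of chromosome 15 from 102921103 to 103036852, and the Hoxd genes in the table (5 of 9) 56.5 kb of chromosome 2 from 74691924 to 74748442.

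The bases before the start site are shown for 5 members on which the levels below turn: Hoxa5 and Hoxb4, the highest of all members, Hoxa9, from the part of the Hoxa cluster that had almost no reads, and Hoxd8 and Hoxd10, which stood out in a single library. Each window holds the 250 bases upstream of the RefSeq start site (GRCm38.p6), written 5′ to 3′ along the gene's strand, with CG dinucleotides in capitals.
Hoxa5, chr6:52204588-52204837, minus strand: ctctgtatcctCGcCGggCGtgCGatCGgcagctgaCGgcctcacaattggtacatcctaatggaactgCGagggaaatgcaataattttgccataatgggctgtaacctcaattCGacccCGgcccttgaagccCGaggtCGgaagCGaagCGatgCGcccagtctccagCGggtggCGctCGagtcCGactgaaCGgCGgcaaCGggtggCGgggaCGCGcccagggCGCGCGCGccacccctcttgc
Hoxb4, chr11:96318017-96318266, plus strand: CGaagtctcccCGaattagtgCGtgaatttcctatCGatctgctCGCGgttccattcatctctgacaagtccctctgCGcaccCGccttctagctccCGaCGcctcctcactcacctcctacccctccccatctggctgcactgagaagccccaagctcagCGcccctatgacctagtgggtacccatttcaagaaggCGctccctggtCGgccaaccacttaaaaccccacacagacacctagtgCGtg
Hoxa9, chr6:52227371-52227620, minus strand: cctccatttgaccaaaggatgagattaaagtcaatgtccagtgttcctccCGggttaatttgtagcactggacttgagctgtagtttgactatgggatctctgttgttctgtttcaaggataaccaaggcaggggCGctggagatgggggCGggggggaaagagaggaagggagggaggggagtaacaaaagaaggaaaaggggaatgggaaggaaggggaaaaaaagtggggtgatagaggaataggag
Hoxd8, chr2:74704365-74704614, plus strand: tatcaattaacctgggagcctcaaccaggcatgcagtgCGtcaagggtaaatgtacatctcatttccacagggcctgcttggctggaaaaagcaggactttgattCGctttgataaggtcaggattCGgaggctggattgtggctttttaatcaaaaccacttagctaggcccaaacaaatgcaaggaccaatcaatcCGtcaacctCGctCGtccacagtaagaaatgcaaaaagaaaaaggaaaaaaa
Hoxd10, chr2:74691641-74691890, plus strand: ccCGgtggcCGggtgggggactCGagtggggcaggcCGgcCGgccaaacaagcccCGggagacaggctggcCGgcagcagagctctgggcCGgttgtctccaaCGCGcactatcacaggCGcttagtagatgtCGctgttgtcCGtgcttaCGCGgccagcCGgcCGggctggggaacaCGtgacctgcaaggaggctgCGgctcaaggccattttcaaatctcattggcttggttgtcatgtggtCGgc

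The windows held 28 CG dinucleotides for Hoxa5, 14 for Hoxb4, 3 for Hoxa9, 6 for Hoxd8 and 20 for Hoxd10. Windows were available for 17 of the 31 members (18 start sites), whose median was 12.5 CG dinucleotides against 6 over all 32841 RefSeq windows of this length. CG content did not order with level, since the Hoxd10 window held more than that of Hoxb4. The letters TATAAA of a core promoter box stood on either strand of 3 of the 18 windows and in 12.4% of all windows. The letters TGATNNAT, a Pbx-Hox composite site, stood in 2 of the 18 and in 7.7% of all, and AGGTCA, the half-site of nuclear receptors, in 6 of the 18 and in 14.0% of all. The motifs were searched separately, and overlapping matches were not removed. These counts describe letters in a window and no binding.

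Of the 31 members, 19 were detected with at least 10 reads in at least 3 libraries. They included Hoxa2 to Hoxa7, Hoxb2 to Hoxb9, Hoxc4, Hoxc5, Hoxd8 and Hoxd9, and the same 19 passed edgeR's filter on low counts. A member passes more easily when 1 genotype is high, so counts over these 19 are descriptions and do not cover the 12 that were not tested. The Hoxa cluster divided sharply by position: Hoxa2 to Hoxa7 took 8619 reads over the 6 libraries, and Hoxa9, Hoxa10, Hoxa11 and Hoxa13 together took 8. Hoxb13 was read once. In all, 6 members had under 10 reads over the 6 libraries together.

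**Figure D1:**
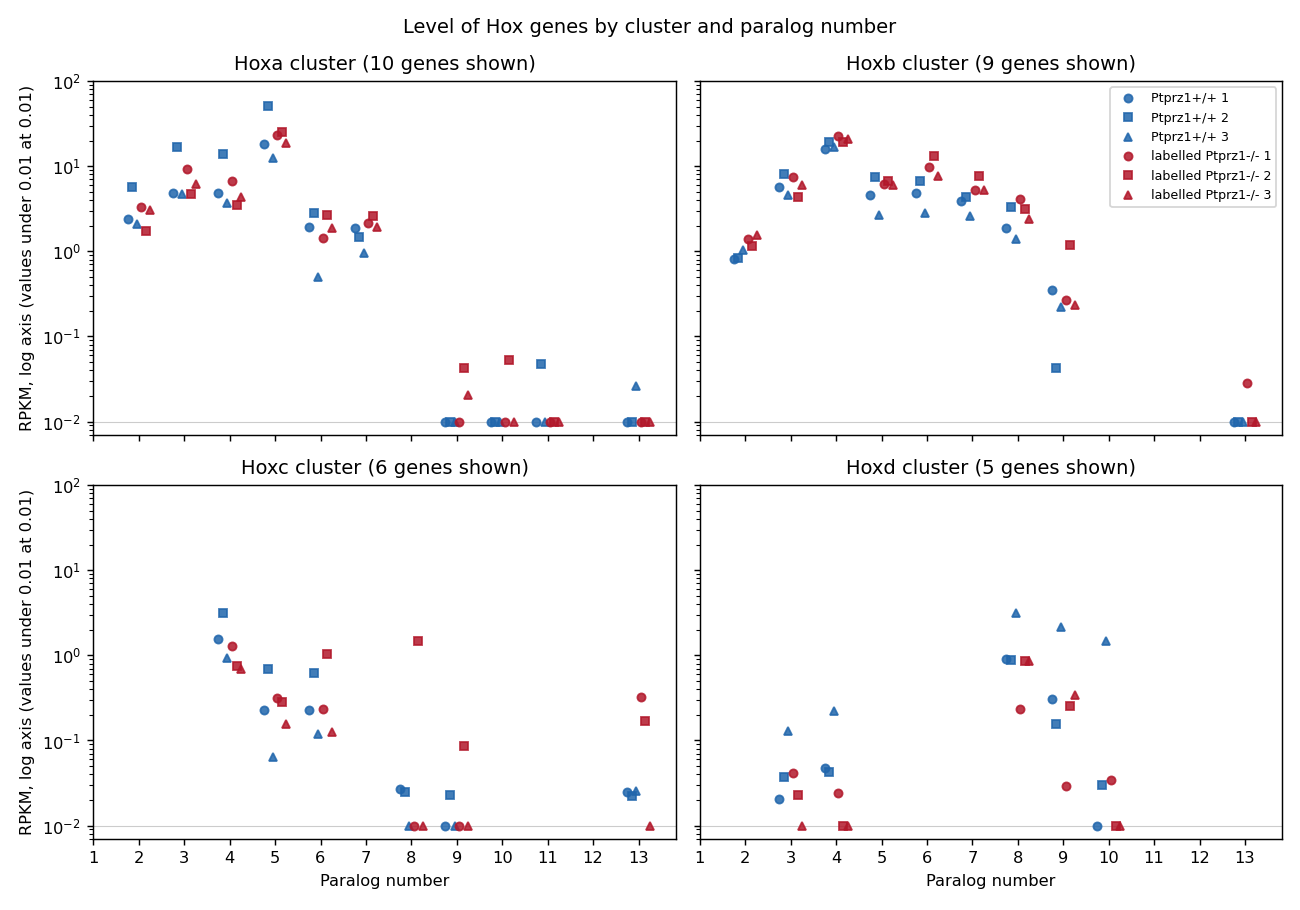
RPKM (log axis, values under 0.01 drawn at 0.01) of Hox genes against their paralog number, one panel per cluster and one point per library (blue, Ptprz1+/+; red, labelled Ptprz1-/-). Levels are highest from paralog 3 to 5 of Hoxa and 3 to 7 of Hoxb, with Hoxa5 and Hoxb4 above all others by mean, and the Hoxa genes from Hoxa9 on lie at the bottom of the axis.

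Levels of different genes were compared as RPKM (CPM per kilobase of the deposited gene length). For some members that length was below the exonic bases in GENCODE, as for Hoxa3 (2591 against 6014) and Hoxb3 (3190 against 4251). The order below therefore depends on the length used. Hoxa5 had the highest mean, 24.9 RPKM over the 6 libraries, at percentile 79.5 of all tested genes. Hoxb4 followed with 19.1 (percentile 74.0), and then Hoxa3 with 7.76, Hoxb6 with 7.47, Hoxa4 with 6.20, Hoxb3 with 6.02, Hoxb5 with 5.59 and Hoxb7 with 4.81 RPKM. Over the libraries, Hoxa5 ranged from 12.5 to 50.3 RPKM and Hoxb4 from 15.9 to 22.5, so these neighbours in the order did not separate. Hoxa3 (4.65 to 16.9 RPKM) and Hoxb6 (2.83 to 13.2) overlapped each other too. The highest members outside Hoxa and Hoxb were Hoxc4 with 1.39 and Hoxd8 with 1.14 RPKM, at percentiles 17.7 and 15.1 of tested genes.

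Summed over their members, Hoxa and Hoxb carried nearly all Hox RNA per length. The Hoxa genes made 45.9% and the Hoxb genes 49.1% of the summed Hox RPKM on average over the 6 libraries, Hoxc 2.37% and Hoxd 2.64%. By position, paralogs 1 to 4 made 47.3%, paralogs 5 to 8 made 51.1% and paralogs 9 to 13 made 1.66%. The sum of all Hox genes was 78.1, 147.5 and 66.3 RPKM in wild-type replicates 1, 2 and 3 and 107.0, 103.4 and 89.1 RPKM in the knockout-labelled libraries. Wild-type replicate 2 was the highest and the genotypes overlapped.

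**Figure D2:**
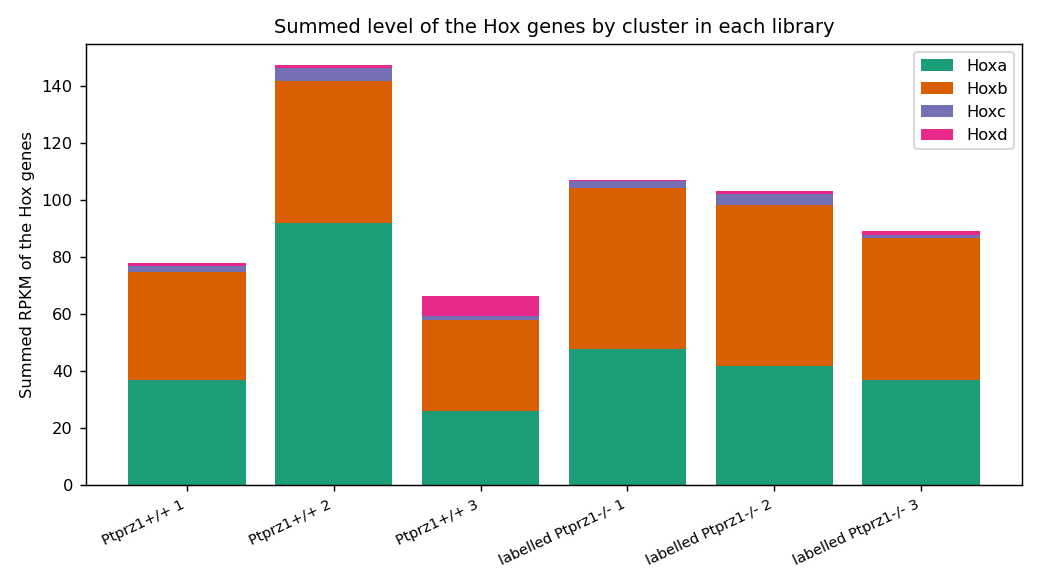
Summed RPKM of the Hox genes in each library, stacked by cluster, with a bar for each library. The Hoxb part is between 32.1 and 49.7 RPKM in the wild-type libraries and between 50.02 and 56.7 in the knockout-labelled libraries, and the Hoxa part is largest, 92.2, in wild-type replicate 2.

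The comparison of genotypes asked which members differed in level between the wild-type and the knockout-labelled LMVEC. No Hox gene passed edgeR's quasi-likelihood test at an adjusted p of 0.05 with Benjamini-Hochberg adjustment over the 13609 genes tested, and neither did any other gene (0.0% called). The adjusted p of each tested member was 1.00 by edgeR. At an unadjusted p under 0.05, 2 of the 19 tested members stood, Hoxb6 and Hoxb7, against 2.69% of all genes tested (366) and 1.13% with the knockout-labelled libraries higher, as both were. This count was 0 without wild-type replicate 1, 0 without knockout-labelled replicate 2 and 5 without wild-type replicate 2. Over all genes tested in those fits the shares were 4.84%, 2.34% and 2.51%. DESeq2, which called 30 genes of the table (0.22%) at an adjusted p of 0.05, called no Hox gene. It also had 2 members at an unadjusted p under 0.05, against 3.63% of all genes it tested. The log2 fold change, labelled Ptprz1-/- over Ptprz1+/+, was above 0 for 9 members and below 0 for 10, against 49.1% above 0 over all genes. Its median was -0.04 over the 19 members and -0.0047 over all genes. The median hid a spread between clusters, at -0.35 for the 7 Hoxa genes, 0.58 for the 8 Hoxb genes, -0.71 for the 2 Hoxc genes and -1.68 for the 2 Hoxd genes. Without wild-type replicate 2 the Hox median was 0.54, that of Hoxa 0.49 and that of Hoxc 0.17, whereas that of Hoxb was 0.83.

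**Figure D3:**
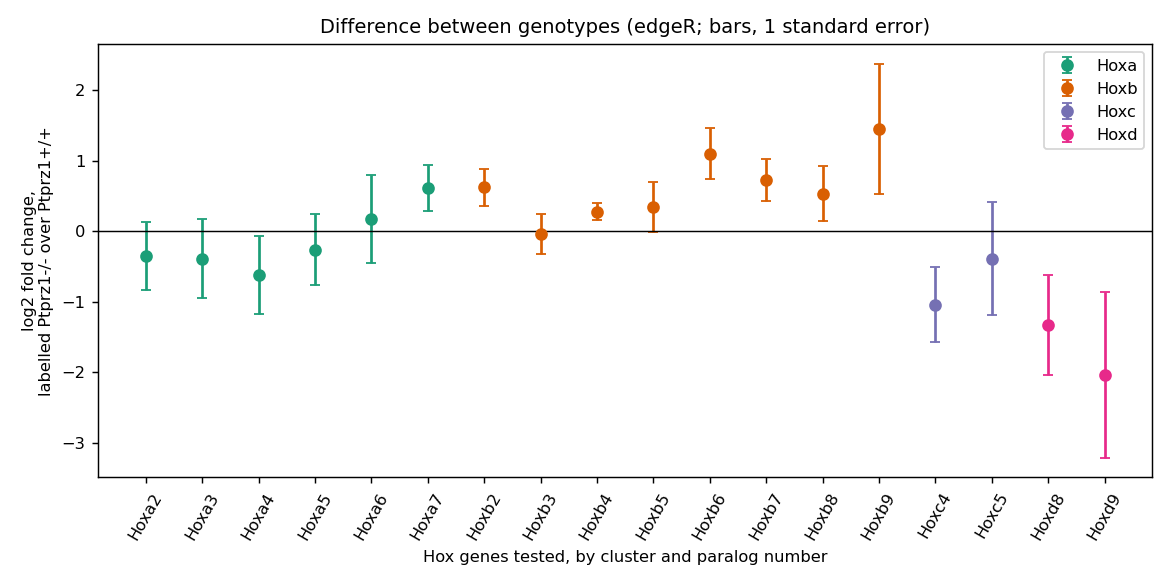
Log2 fold change (labelled Ptprz1-/- over Ptprz1+/+) of tested Hox genes by cluster and paralog number. Bars are 1 standard error of edgeR's fit. Of the 8 Hoxb genes 7 lie above 0, from 0.28 to 1.45, and the 4 Hoxc and Hoxd genes lie below 0.

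The CPM of the genotypes did not overlap for 6 of the 19 tested members, 5 higher in the knockout-labelled libraries (Hoxa7, Hoxb2, Hoxb4, Hoxb6 and Hoxb7) and 1 lower (Hoxd8). Over all genes tested this held for 7.28%, with 3.55% higher and 3.73% lower. With the library size taken as the plain sum of counts, Hoxb4 and Hoxd8 overlapped. Hoxd4, with 14 reads in all, was also lower without overlap but was not tested. Each such separation of 3 libraries from 3 has an exact two-sided permutation p of 0.10, the smallest this design allows, so no single gene could pass by that test.

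Hoxb was the cluster with the most members higher in the knockout-labelled libraries. Its summed level was 38.0, 49.7 and 32.1 RPKM in wild-type replicates 1, 2 and 3 and 56.7, 56.6 and 50.02 RPKM in the knockout-labelled libraries (40.0 ± 8.93 against 54.4 ± 3.84, SD, n = 3). The lowest knockout-labelled library lay only just above wild-type replicate 2, but the genotypes did not overlap, and this held with the plain sum of counts as well. As a share of all Hox RPKM, which does not depend on library size, Hoxb made 48.7%, 33.7% and 48.5% in the wild-type libraries and 53.0%, 54.8% and 56.2% in the others. That share does depend on the other clusters. Hoxd made 10.7% of the Hox sum in wild-type replicate 3 and at most 1.63% in any other library. The ratio of summed Hoxa to summed Hoxb, which leaves Hoxd out, overlapped between the genotypes. The members of a cluster share the same libraries, so they are not separate evidence of a difference. Of the 8 tested Hoxb genes, 7 had a log2 fold change above 0 against 49.1% of all genes tested, as they did in each of the 14 other fits that tested them (Hoxb9 was not tested when at least 10 counts were required in every library).

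Hoxb6, known for its expression in the lateral plate mesoderm, had the lowest p of the members. It lies on chromosome 11 from 96292476 to 96301569. Its level was 9.42, 13.03 and 5.55 CPM in wild-type replicates 1, 2 and 3 and 19.0, 26.0 and 15.0 CPM in the knockout-labelled libraries (9.33 ± 3.74 against 20.0 ± 5.58, SD, n = 3). All knockout-labelled libraries were above all wild-type libraries. The log2 fold change was 1.10 (standard error 0.36, unadjusted p = 0.0208, adjusted p = 1.00 by edgeR after Benjamini-Hochberg adjustment), and over the other fits its adjusted p ranged from 0.607 to 1.00.

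Hoxb7, best known for its expression in the kidney's collecting duct system, neighbours Hoxb6 on the 5′ side of the cluster (chromosome 11 from 96286623 to 96290162). It was at 5.07, 5.61 and 3.34 CPM in the wild-type libraries and at 6.70, 9.81 and 6.74 CPM in the knockout-labelled libraries. The groups did not overlap, with a log2 fold change of 0.73 (standard error 0.30, unadjusted p = 0.0479, adjusted p = 1.00 by edgeR with Benjamini-Hochberg adjustment).

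Hoxb4, known for its effect on the growth of blood stem cells, was the steadiest member, with a standard deviation within genotypes of 0.116 on the log2(CPM + 1) scale. It was at 40.9, 48.7 and 43.2 CPM in the wild-type libraries and at 57.6, 49.7 and 53.8 CPM in the knockout-labelled libraries. The groups were separate by a small margin between the replicates 2, and the log2 fold change was 0.28 (standard error 0.12). Hoxb2, a gene of hindbrain patterning, was at 2.54, 2.64 and 3.22 CPM in the wild-type libraries and at 4.40, 3.64 and 4.89 CPM in the others. The log2 fold change of Hoxb2 was 0.62 (standard error 0.26) without overlap. Without strand, however, its reads cannot be told from those of the antisense gene Hoxb3os, which covers 27.3% of its exonic bases, and the use of strand in counting is not given in the sources used here. Hoxb3os itself took 13 to 37 reads per library, against 42 to 74 for Hoxb2. Its own count depends on the use of strand too, so these counts set no limit on the shared reads.

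Hoxb3, the third of the cluster by mean level, was the exception among the Hoxb genes. It was at 18.3, 25.6 and 14.5 CPM in the wild-type libraries and at 23.7, 13.8 and 19.4 CPM in the knockout-labelled libraries. Its log2 fold change was -0.04 (standard error 0.29), the groups overlapped, and Hoxb3os covers 52.9% of its exonic bases. Hoxb5 (0.34, standard error 0.36) and Hoxb8 (0.53, standard error 0.39) had log2 fold changes above 0 with overlapping groups. With a library left out, that of Hoxb5 ran from 0.05 to 0.77 and that of Hoxb8 from 0.29 to 0.96, both lowest without wild-type replicate 3 and highest without wild-type replicate 2. Hoxb9 had the largest log2 fold change above 0 of the members tested, 1.45 (standard error 0.92), on 15, 2 and 9 reads in the wild-type libraries and 11, 45 and 9 reads in the knockout-labelled libraries. That value rests on knockout-labelled replicate 2, without which it was 0.28.

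**Figure D4:**
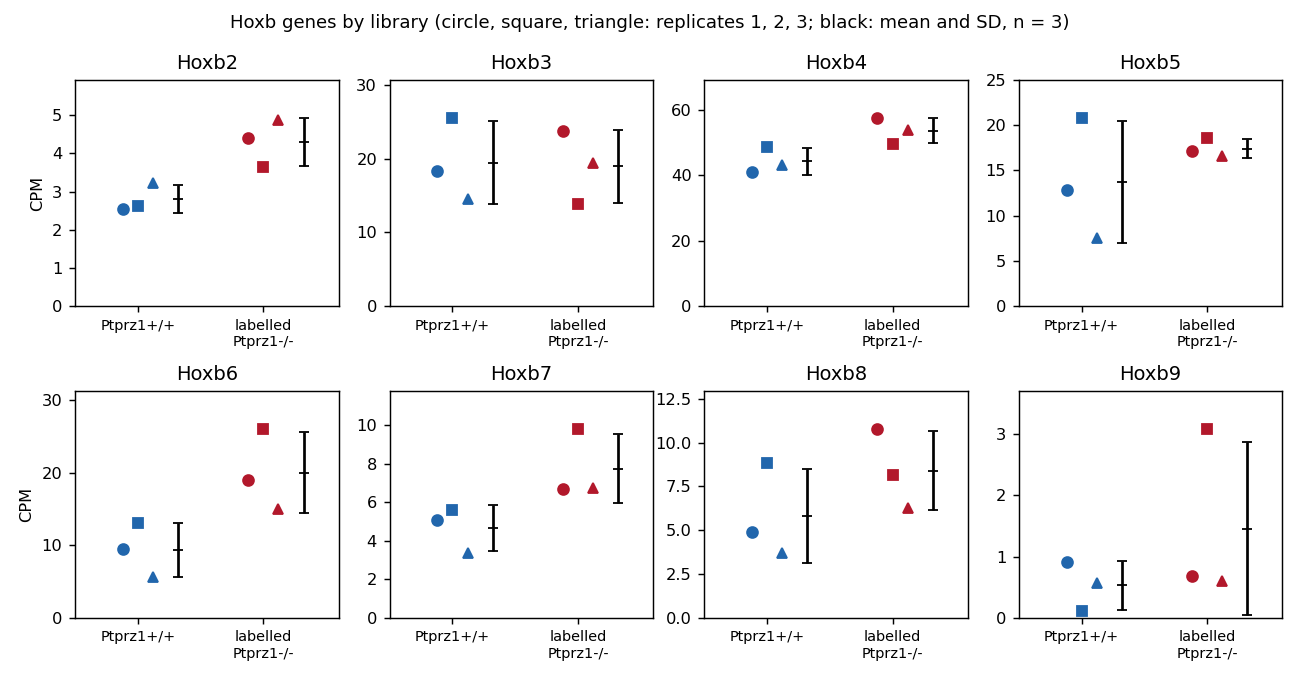
CPM of the 8 tested Hoxb genes in each library (circles, squares and triangles are replicates 1, 2 and 3; black bars are the mean and SD, n = 3). The genotypes are apart for Hoxb2, Hoxb4, Hoxb6 and Hoxb7 and overlap for the other 4, and Hoxb9 is high in 1 library, at 3.09 CPM.

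The marker lists with tested genes also had medians away from 0 in this comparison. The 6 mesothelial markers all had log2 fold changes above 0 (median 2.40, 0 called), with overlapping sums of 55.8 to 217 CPM in the wild-type libraries and 115 to 1380 CPM in the knockout-labelled libraries. Of the 10 fibroblast markers 9 were below 0 (median -0.54), and all 12 endothelial markers were below 0 (median -1.43). The 8 smooth muscle and pericyte markers were mixed, 5 above 0 and 3 below (median 0.27). Both leukocyte markers tested were below 0 (median -0.75). The part of any of these cell types in the Hoxb levels was not tested.

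The Hoxa genes showed no such order by genotype. Hoxa5, which lies on chromosome 6 from 52201754 to 52204587, had levels of 34.6, 94.4 and 23.5 CPM in wild-type replicates 1, 2 and 3 and of 44.0, 47.8 and 35.5 CPM in the knockout-labelled libraries. Wild-type replicate 2 was 1.98 times the next library, while the other wild-type libraries were below all knockout-labelled libraries. The log2 fold change was -0.26 (standard error 0.50), and 0.54 without that library.

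Hoxa3, needed for the thymus and parathyroid, and Hoxa4, used in the cervical region, shared with Hoxa5 only the high wild-type replicate 2. Hoxa3 was at 12.7, 43.7 and 12.1 CPM in the wild-type libraries and at 23.9, 12.2 and 16.1 CPM in the others (log2 fold change -0.39, standard error 0.56). Hoxa4 was at 7.67, 22.3 and 5.93 CPM in the wild-type libraries and at 10.8, 5.63 and 6.94 CPM in the others (log2 fold change -0.62, standard error 0.55). For both, wild-type replicate 2 was the highest and the remaining libraries were mixed. Hoxa2, of the branchial arches, was at -0.35 on the log2 scale of fold changes (standard error 0.48), and Hoxa6 at 0.17 (standard error 0.62). Each of Hoxa2 to Hoxa6 was highest in that library, and each of these log2 fold changes but that of Hoxa6 changed sign without it, as did those of Hoxb3 and Hoxc5. Hoxa6 turned negative, -0.26, without wild-type replicate 3. Exonic bases of Hoxa2 to Hoxa4 are shared with other genes. The protein-coding gene Gm28308, on the same strand, covers 15.0% of those of Hoxa2, and the antisense gene Gm29430 16.0% of those of Hoxa4. Single genes cover up to 8.4% of those of Hoxa3.

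Hoxa7, at the far end of the expressed stretch, was at 3.87, 3.02 and 1.96 CPM in the wild-type libraries and at 4.40, 5.22 and 3.90 CPM in the knockout-labelled libraries. It was the 1 Hoxa gene whose genotypes did not overlap, with a log2 fold change of 0.61 (standard error 0.33, adjusted p = 1.00 by edgeR with Benjamini-Hochberg adjustment), although the antisense gene Hoxaas3 covers 20.4% of its exonic bases. The ratio of the summed Hoxa to the summed Hoxb RPKM was 0.966, 1.86 and 0.807 in the wild-type libraries and 0.844, 0.738 and 0.737 in the others, so the groups overlapped and wild-type replicate 2 stood apart.

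From Hoxa9 on, the counts were 0 in nearly every library. Hoxa9 was read 2 times in knockout-labelled replicate 2 and once in knockout-labelled replicate 3, Hoxa10 2 times in knockout-labelled replicate 2, Hoxa11 2 times in wild-type replicate 2 and Hoxa13 once in wild-type replicate 3. A count of 0 allows up to 3 reads per library by counting error alone, so no fold is given for these genes, which were named after their values were seen.

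Hoxc and Hoxd were low, and much of their RNA lay in single libraries. Hoxc4 takes part in forming the vertebrae and the oesophagus. It was at 3.26, 6.65 and 1.96 CPM in the wild-type libraries and at 2.73, 1.58 and 1.45 CPM in the knockout-labelled libraries. The log2 fold change was -1.04 (standard error 0.53). The groups overlapped, and without wild-type replicate 2 the value was -0.44. Hoxc5 was counted 11, 37 and 3 times in the wild-type libraries and 15, 12 and 7 times in the others (log2 fold change -0.39, standard error 0.80). Hoxc6 was counted 6, 18 and 3 times in the wild-type libraries and 6, 24 and 3 times in the others, and was not tested. Hoxc5 was highest in wild-type replicate 2, and Hoxc6 was high in the replicates 2 of both labels.

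Hoxc8, a gene of the thoracic trunk and forelimb level that was singled out after its values were seen, was read almost only in knockout-labelled replicate 2. That library held 48 of its 50 reads (Poisson 95% interval 35.4 to 63.6, counting error only), against 1, 1 and 0 reads in the wild-type libraries and 0 in both other knockout-labelled libraries. The same library had the highest counts of Hoxb9 (45 of 91 reads), Hoxc6 (24 of 60) and Hoxc9 (3 of 4). Hoxc13, known from the hair follicle, was counted 1, 1 and 1 times in the wild-type libraries and 13, 6 and 0 times in the knockout-labelled libraries.

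Hoxd RNA lay mostly in wild-type replicate 3. The summed Hoxd level was 1.27, 1.14 and 7.07 RPKM in the wild-type libraries and 0.365, 1.14 and 1.19 RPKM in the knockout-labelled libraries. Hoxd8, on chromosome 2 from 74704615 to 74707933, had levels of 2.36, 2.31 and 8.27 CPM in the wild-type libraries and of 0.620, 2.26 and 2.25 CPM in the others. Apart from the high library, the 2 other wild-type values lay barely above the 2 highest of the others, and the log2 fold change of -1.33 (standard error 0.71) was -0.45 without wild-type replicate 3.

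Hoxd9 and Hoxd10, of the posterior trunk and the limb, showed the same library more sharply. Hoxd9 was counted 11, 6 and 72 times in the wild-type libraries and 1, 8 and 11 times in the knockout-labelled libraries. Its log2 fold change of -2.03 (standard error 1.17) became -0.16 without wild-type replicate 3. Hoxd10 was counted 0, 1 and 42 times in the wild-type libraries and 1, 0 and 0 times in the others, and was not tested. Thus 45.3% of the reads of Hoxd8, 66.1% of those of Hoxd9 and 95.5% of those of Hoxd10 came from 1 of 6 libraries. Hoxd3 (0 to 6 reads per library) and Hoxd4 (0 to 9) were highest there too, but the protein-coding gene Gm28230 covers 53.1% of the exonic bases of Hoxd3 and 39.1% of those of Hoxd4. That library also had the largest endothelial sum, 587 CPM, and the largest leukocyte sum, 45.7 CPM, whose part in the Hoxd levels was not tested.

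**Figure D5:**
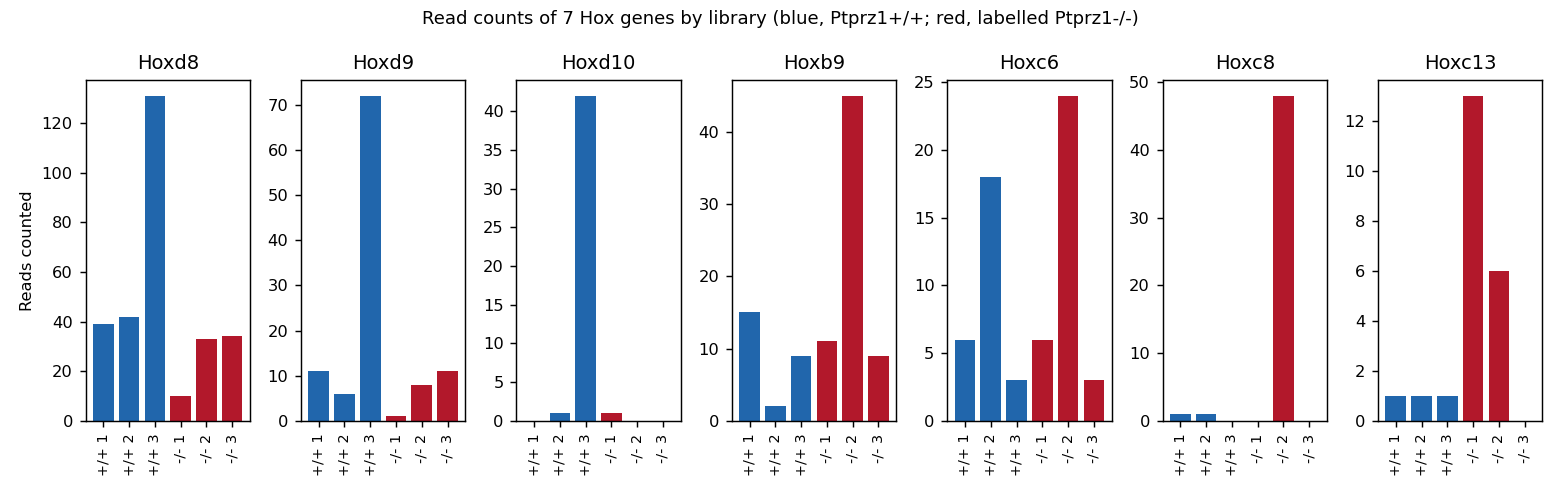
Reads counted per library for 7 Hox genes of the Hoxd, Hoxb and Hoxc clusters (blue, wild-type replicates 1 to 3; red, knockout-labelled replicates 1 to 3; each panel has its own axis from 0). Hoxd8, Hoxd9 and Hoxd10 are highest in wild-type replicate 3, with 131, 72 and 42 reads, and Hoxb9, Hoxc6 and Hoxc8 in knockout-labelled replicate 2, with 45, 24 and 48.

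Hox genes varied more between libraries of the same label than most genes did. The median standard deviation within genotypes was 0.507 on the log2(CPM + 1) scale over the 19 tested members and 0.258 over all 13609 genes. It was 0.263 over the 10450 tested genes in the RPKM range of these members. That range, 0.291 to 24.9 RPKM, takes in most tested genes, so this value is not matched on level. By cluster the median standard deviation was 0.558 for Hoxa, 0.419 for Hoxb, 0.524 for Hoxc and 0.777 for Hoxd. Within Hoxb the standard deviation ran from 0.116 for Hoxb4 to 0.608 for Hoxb9. Wild-type replicate 2 was the highest library for 9 of the 19 and wild-type replicate 3 the lowest for 9. Separate isolations with different mice stand behind these values, and which part is biological and which technical cannot be told apart.

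The genes that work with or on the Hox clusters were called in no list by edgeR at an adjusted p of 0.05. Of the 9 Hox cofactors, all tested, 1 had a log2 fold change above 0 and 8 below (median -0.21), against 49.1% above 0 over all genes. Meis1, with a mean of 12.4 RPKM, was at -0.17 (standard error 0.29). Meis2 and Pknox1 were lower in the knockout-labelled libraries without overlap, as were 3.73% of all genes. Meis2 was at 73.8, 73.8 and 73.3 CPM in the wild-type libraries and at 65.6, 68.8 and 51.9 CPM in the others (log2 fold change -0.25, standard error 0.14). That of Pknox1 was -0.24 (standard error 0.14).

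All 19 Polycomb and Trithorax genes were tested, 12 above 0 and 7 below, with a median of 0.01. Cbx7, a chromobox reader in Polycomb repressive complexes, was the 1 of 19 at an unadjusted p under 0.05, against 2.69% of all genes. It was at 7.97, 5.94 and 7.63 CPM in the wild-type libraries and at 14.1, 9.75 and 11.8 CPM in the knockout-labelled libraries. Its groups did not overlap, with a log2 fold change of 0.73 (standard error 0.23, unadjusted p = 0.0176, adjusted p = 1.00 by edgeR with Benjamini-Hochberg adjustment). Eed, a core subunit of the histone methylating complex, was lower without overlap but by little, -0.17 (standard error 0.13). The highest of the list by RPKM were Phc2 (25.6 RPKM, log2 fold change 0.19) and Pcgf2 (20.7 RPKM, -0.17).

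Retinoic acid and the Cdx factors set Hox borders in the embryo. Of 20 genes of this list in the table, 14 were tested, 8 above 0 and 6 below (median 0.02), and none stood at an unadjusted p under 0.05. Dhrs3, an enzyme that reduces retinal to retinol, was the highest with 134.8 RPKM and did not differ in a way the test called (0.02, standard error 0.22). Crabp1, a retinoic acid binding protein, was counted 347, 4468 and 44 times in the wild-type libraries and 32, 277 and 59 times in the others (log2 fold change -3.44, standard error 1.64). Its peak lay in wild-type replicate 2, the library in which Hoxa2 to Hoxa6 were highest, and a relation between them was not tested. Stra6, the membrane receptor for retinol carried in blood, was counted 5, 52 and 17 times in the wild-type libraries and 0, 2 and 2 times in the others and was not tested. Cdx1 and Cdx2 were at 0 or 1 read in every library.

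Of the foregut mesoderm factors, 8 of 10 in the table were tested, 5 above 0 and 3 below (median 0.03). Foxf1, required for lung vessels and mesenchyme, was the highest (27.2 RPKM, log2 fold change 0.33, standard error 0.21), followed by Foxf2 (8.67 RPKM, 0.02). Tbx4, a T-box factor of the lung and hindlimb mesenchyme, was at 8.40, 22.9 and 7.13 CPM in the wild-type libraries and at 30.0, 28.4 and 34.5 CPM in the knockout-labelled libraries. All knockout-labelled libraries were higher, and it was the 1 of 8 at an unadjusted p under 0.05, against 2.69% of all genes, with a log2 fold change of 1.27 (standard error 0.45, unadjusted p = 0.0285, adjusted p = 1.00 by edgeR with Benjamini-Hochberg adjustment). Among other genes inside the Hox clusters, 6 of 18 were in the table and 5 tested, 2 above 0 and 3 below (median -0.01). The highest were the antisense genes Hotairm1 (17.2 RPKM, log2 fold change -0.01, standard error 0.18) and Hoxb5os (10.7 RPKM, 0.15, standard error 0.33), both with overlapping genotypes.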

How the data were processed

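RNA sequencing of 6 libraries was analysed, 3 of Ptprz1+/+ LMVEC and 3 labelled Ptprz1-/-, grouped by title. The authors deposited unnormalized counts of reads per gene for 21999 genes, each row with at least 1 read. They also deposited FPKM values, which the counts, the deposited gene length and the sum of counts gave back to within 5e-10 percent and which were used for that check alone. The submitters' processing notes name STAR, TopHat, HTSeq, DESeq2, edgeR, GRCm38 and mm10, with no versions or roles, and the use of strand in counting is not given in the sources used here. The authors' own fold changes, p-values and lists of called genes were not used.

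Counts were fitted over all genes with edgeR 4.0.16 in R 4.3.3 (filterByExpr, TMM, glmQLFit and glmQLFTest with genotype alone in the model, Benjamini-Hochberg adjustment, threshold 0.05), which tested 13609 genes. Steps were tested on simulated data. Depth was 14496881 to 17709663 counts, and intervals and floors (3 reads) cover counting error only. No pair of libraries held the same counts. Replicates are separate isolations. The labels state no pairing, so the numbers were not taken as pairs in the fit with genotype alone. Deviations of same-numbered libraries correlated at 0.46, -0.06 and 0.53, and those of differently numbered libraries at -0.58 to 0.08. The replicates 1 and the replicates 3 thus correlated more highly across labels than any differently numbered libraries. For single genes an exact two-sided permutation test was run on log2(CPM + 1). Sequences are RefSeq's (GRCm38.p6), and overlaps and positions come from GENCODE, with which 31 of 31 members overlap.

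The members and lists were chosen with earlier results of these data known. Values in every library are given for the 3 genes of each cluster with the highest mean RPKM, those at an unadjusted p under 0.05, those without overlap of the genotypes, and the 3 with the largest log2 fold change in each direction. Of each related list, members at an unadjusted p under 0.05 or without overlap and the 2 highest by RPKM are named. Hoxa9 to Hoxa13, Hoxc8, Hoxc9, Hoxc13, Hoxd3, Hoxd4, Hoxb3os, Cdx1 and Cdx2 were added after their values were seen. Alternatives were DESeq2 1.42.0, upper-quartile normalization, other filters, a threshold of 0.1, the replicate number as a block, each library left out and, added after seeing the data, edgeR's likelihood ratio test, limma 3.58.1 voom, the replicates 1 and 2 alone and other library sizes. A planned comparison of homeodomain sequences was not run. Some genes are not reported here, though sums and counts over lists include them.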

Additional observations from a re-analysis of the deposited data

How the results depend on the processing

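No Hox gene passed an adjusted p of 0.05 in any fit, nor of 0.1 in edgeR's, and the lowest adjusted p of a member was 0.607, for Hoxb6 with the replicate number as a block. Over all genes DESeq2 called 30 and edgeR's likelihood ratio test 17, against 0 by edgeR's quasi-likelihood test, with every library in turn left out (0 to 0) and in the remaining fits. With the replicate block 0 genes were called and the median log2 fold change of Hoxb was 0.60. The labels do not state whether the numbers pair libraries. When libraries were left out one at a time, the median log2 fold change ran from -0.18 to 0.54 over the Hox genes, -0.60 to 0.49 for Hoxa, 0.41 to 0.83 for Hoxb, -0.86 to 0.17 for Hoxc and -2.09 to -0.30 for Hoxd. The upper ends of the first 4 came without Ptprz1+/+ replicate 2 and that of Hoxd without Ptprz1+/+ replicate 3. The genes behind these medians changed with the fit, as the left-out medians of Hoxc covered 2 or 3 genes. Without the filter on low counts the Hoxc median was 0.99, over 6 genes instead of 2. On the replicates 1 and 2 alone, Hoxd8 was the 1 Hoxd gene tested, at -0.70.

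The genotypes did not overlap for 6 to 9 tested Hox genes with a library left out, of which 5 to 8 were higher in the libraries labelled Ptprz1-/-, the most without Ptprz1+/+ replicate 2. With 2 libraries against 3 separation is more frequent, and over all genes tested it then held for 13.7% to 21.9%, higher in those labelled Ptprz1-/- for 6.85% to 11.6%, against 7.28% and 3.55% with all 6 libraries. The log2 ratio of summed levels ran from -0.61 to 0.43 for Hoxa, 0.31 to 0.63 for Hoxb, -0.71 to 0.54 for Hoxc, -2.21 to -0.42 for Hoxd and -1.35 to 1.03 for paralogs 9 to 13. It was 1.00 for Hoxc without its highest gene and 1.30 for paralogs 9 to 13 on the replicates 1 and 2. Of 261 fits of single members 250 kept their sign and side of the threshold and 11 changed sign, and 12 genes never did. Those that did ran from -0.60 to 0.26 for Hoxa2, -0.70 to 0.49 for Hoxa3, -0.94 to 0.20 for Hoxa4, -0.60 to 0.54 for Hoxa5, -0.26 to 0.70 for Hoxa6, -0.22 to 0.21 for Hoxb3 and -0.86 to 0.78 for Hoxc5. Hoxa6 was also -0.22 on the replicates 1 and 2 and Hoxc5 0.085 by limma voom. The cause of these changes was not tested beyond the library left out. With 3 libraries a genotype and few reads for Hoxc and Hoxd, neither small nor larger differences were called. The log2 fold changes of Hoxb6 (1.10) and Hoxd9 (-2.03) did not pass. Hoxa5, with 4607 reads, still had a standard error of 0.50. The absence of calls therefore does not show equal levels.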
